A study of Homo sapiens with 4 samples.

Results

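Box C/D small nucleolar RNAs (SNORDs) were represented by 176 genes of the 20045 named on the arrays, through 178 of 47231 probes, since SNORD107 and SNORD58C held 2 probes each. A probe was a member when the gene symbol in the array's platform annotation began with SNORD. The cells were L591, an established line from Hodgkin lymphoma, and both groups had received 10 µg of the GFP plasmid pEGFP-N3 and been sorted for GFP-positive cells. The mock group carried 40 µg of empty pcDNA3, and the PDLIM2 group carried 40 µg of pcDNA3 with transcript variant 2 of PDLIM2, a PDZ and LIM domain protein described as a putative ubiquitin ligase. There were 2 Illumina bead arrays per group, array 1 and array 2. All RNA came from a single line after transfection. It is not stated whether arrays 1 and 2 came from separate cultures, and p-values here therefore reflect the spread between arrays alone, which may be technical.

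Box C/D snoRNAs are short nucleolar RNAs that carry the C and D sequence boxes and assemble with the proteins FBL, NOP56, NOP58 and SNU13. Most guide FBL, a methyltransferase, to add 2′-O-methyl groups to ribosomal RNA, and a few, such as U3 and U14, act in the cleavage of the ribosomal RNA precursor. In human cells most are cut from introns of host genes, many of which encode ribosomal proteins or are noncoding RNAs whose introns are their main known product. Mature box C/D snoRNAs are not polyadenylated, whereas polyadenylated RNA is what the samples are labelled as. Whether a SNORD probe read the mature snoRNA or a longer transcript was not tested.

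All 4 arrays shared nearly the same distribution, with medians between 6.006 and 6.007 log2 units, and arrays of a group correlated at r = 0.99 across all probes. PDLIM2 had 2 probes, and both were dim. The brighter read 5.50 and 5.16 in mock and 5.76 and 5.52 in PDLIM2 (array 1 first, as in every pair of values that follows), and the other read 5.48 and 5.62 in mock and 5.24 and 5.27 in PDLIM2. The 2 probes differed in opposite directions, neither passed the limma test on all probes (adjusted p = 0.9998 for each), and whether either lies in the transfected cDNA was not determined, so they do not check the labels. Of the markers listed for a Hodgkin phenotype 11 of 12 were above the brightness filter, with GATA2 below it, and of the 7 B-cell markers reported here 6 were, with PAX5 below it. Of T and NK markers 2 of 8 (CD2 and NKG7) and of myeloid markers 3 of 8 were above it. The log2 of the summed T and NK markers was 11.81 and 12.32 in mock and 11.88 and 12.15 in PDLIM2. Most of that sum was CD2, at 11.59 and 12.17 in mock and 11.69 and 11.98 in PDLIM2. CD3D, CD3E and CD3G were under the filter. For the myeloid markers the log2 of the sum was 9.35 and 9.00 in mock and 9.22 and 9.08 in PDLIM2. The part of other cells in the results was not tested. In a bulk sample, fewer cells of a type and less RNA per cell cannot be told apart.

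SNORD levels in L591 cells ranged widely. Over the 4 arrays, 4 probes averaged 10 log2 units or more, 17 lay between 8 and 10, 35 between 7 and 8, and 38 between 7 and the filter, which was the median of all probes (5.99). The other 84 were under it, so 94 of 178 SNORD probes (52.8%) passed, beside 56.2% of all probes with 1 gene symbol. Just inside it, SNORD41 read 6.02 and 5.99 in mock and 5.88 and 6.07 in PDLIM2. Just outside it, SNORD114-7 read 5.79 and 6.0 in mock and 6.02 and 6.10 in PDLIM2. The deposited values carry no detection p-value or background level, and a level is a property of each probe, so the order between probes is not an order of RNA amounts.

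**Figure D1:**
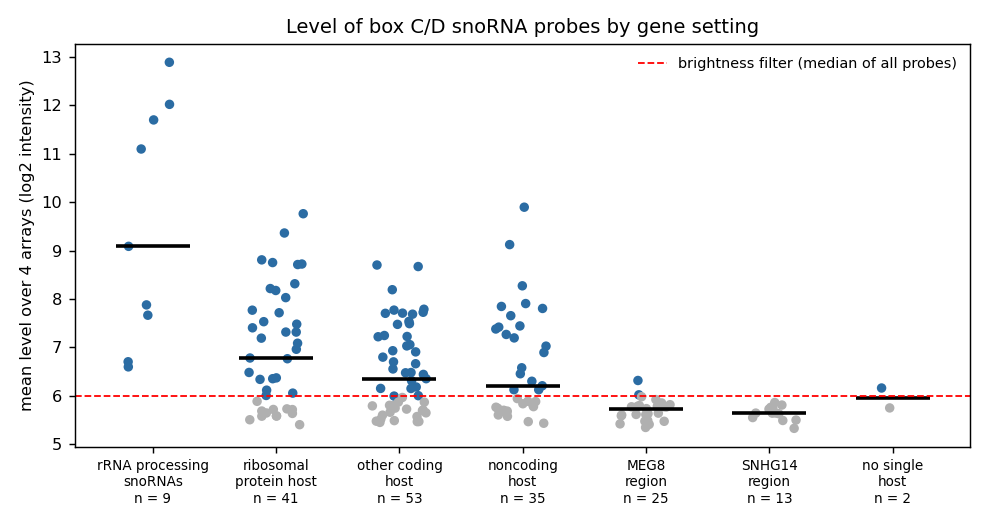
Mean log2 level over the 4 arrays of all 178 SNORD probes, by kind of host gene, with each median as a bar and the filter as a dashed line. The group of processing snoRNAs, in which SNORD13 was counted, holds the 4 brightest probes, and all 13 probes of the SNHG14 region lie under the filter.

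The brightest SNORD probes belonged to snoRNAs with genes of their own. SNORD3A, SNORD3C and SNORD3D encode U3, which base-pairs with the ribosomal RNA precursor within the small-subunit processome. Their sequences are near identical, so a probe cannot be tied to 1 copy with certainty. SNORD13 encodes U13, a guide for acetylation of small-subunit ribosomal RNA. SNORD3D read 12.31 and 13.05 in mock and 12.56 and 13.66 in PDLIM2. SNORD3A read 11.34 and 12.17 in mock and 11.78 and 12.80 in PDLIM2. SNORD13 read 11.84 and 11.95 in mock and 10.96 and 12.05 in PDLIM2. In all 3 the groups overlapped, and PDLIM2 array 2 held the highest value. The difference was 0.43 (SE 0.39) for SNORD3D and 0.54 (SE 0.38) for SNORD3A, and without PDLIM2 array 2 it was −0.12 and 0.03. SNORD104, a large-subunit guide from the noncoding SNHG25, was also among the 6 brightest, with 9.99 and 9.87 in mock and 9.93 and 9.80 in PDLIM2 (−0.06), groups that overlapped.

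Members of the 2 large imprinted clusters were mostly dim. Of the 25 probes in the MEG8 region, on chromosome 14, 2 passed the filter, SNORD113-7 and SNORD114-2, and the median level was 5.73. None of the 13 probes in the SNHG14 region, on chromosome 15 and holding the SNORD115 and SNORD116 families, passed, with 5.86 as their highest mean. Among the 41 SNORDs with a ribosomal protein host 29 passed, beside 33 of 53 with another protein-coding host and 20 of 35 with a noncoding host.

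The comparison of PDLIM2 with mock asks which transcripts differ in L591 cells given PDLIM2. More SNORD probes were higher than lower in the PDLIM2 arrays, and those hosted by ribosomal protein genes had the highest median among the kinds of intronic host, but no single probe passed the test. Of the 94 above the filter, 64 were higher and 30 lower (68.1% higher, beside 52.8% of the 23615 tested probes), and their median difference was 0.14 log2 units, beside 0.01 over all tested probes. The range ran from −0.42 for SNORD11B to 0.93 for SNORD83B. In 36 SNORDs (38.3%) both PDLIM2 arrays lay above both mock arrays, beside 15.8% of all tested probes. In 6 (6.38%) both lay below, beside 12.8%. Compared by array number, 51 of 94 were higher in PDLIM2 under numbers 1 and 2 alike (54.3%, beside 29.5%), and 15 were lower under both (16.0%, beside 25.2%).

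In the limma fit 0 SNORD probes were called higher and 0 lower at an adjusted p of 0.05, and 0.0% of all tested probes were called in either direction. At an unadjusted p under 0.05, 15 SNORDs were higher (1.08% of all tested probes were) and 0 lower (1.74%). Past 1.5-fold as well, 8 were higher, beside 0.356% of all tested probes, and 0 lower, beside 0.97%. This count was 2 with an offset of 50 on the intensity, 4 with a filter at the 75th percentile, and 14 higher with 2 lower without PDLIM2 array 1.

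The excess of higher SNORDs depended on single arrays. Without PDLIM2 array 1, 51 of the 94 were higher (54.3%), beside 53.7% of all tested probes, so that the shares were near equal, and the median SNORD difference was 0.07, beside 0.03. Without mock array 2, 54 were higher (57.4%, beside 51.8%) and the median was 0.06. Without mock array 1 or PDLIM2 array 2, 73 were higher (77.7%, beside 52.3% and 51.2%), with medians of 0.22 and 0.20. Without PDLIM2 array 1 limma called 6 SNORDs higher and 1 lower, and over all tested probes 163 higher and 647 lower.

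The 10 SNORDs with the highest difference came from 9 host genes and 1 gene without a host. SNORD83B, from an intron of RPL3, read 8.48 and 8.10 in mock and 9.12 and 9.31 in PDLIM2. That is 1.91-fold, a difference of 0.93 log2 units (SE 0.20). Both PDLIM2 arrays were above both mock arrays. U3 as read by SNORD3C gave 10.43 and 10.85 in mock and 10.79 and 12.33 in PDLIM2, a difference of 0.92 (SE 0.46). Here the groups overlapped, and the difference was 0.15 without PDLIM2 array 2 and 1.69 without PDLIM2 array 1.

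SNORD38A, a large-subunit guide, read 6.98 and 6.40 in mock and 7.41 and 7.55 in PDLIM2 (difference 0.79, SE 0.23). For SNORD74, a large-subunit guide from GAS5, the values were 7.42 and 7.49 in mock and 8.42 and 8.05 in PDLIM2 (0.78, SE 0.19). The groups were apart in both. In ZFAS1, a noncoding RNA, SNORD12 read 7.06 and 7.07 in mock and 7.72 and 7.81 in PDLIM2 (0.70, SE 0.17). SNORD92, a large-subunit guide from WDR43, read 6.67 and 6.76 in mock and 7.45 and 7.33 in PDLIM2 (0.68, SE 0.17). In these 2 as well, both PDLIM2 arrays were above both mock arrays.

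SNORD110, a small-subunit guide from NOP56, read 7.23 and 7.17 in mock and 7.75 and 7.99 in PDLIM2 (0.67, SE 0.18). SNORD35A, a large-subunit guide from RPL13A, read 7.28 and 7.64 in mock and 7.76 and 8.39 in PDLIM2 (0.62, SE 0.25). SNORD97, which guides methylation of a methionine transfer RNA and lies in EIF4G2, read 6.70 and 7.16 in mock and 7.38 and 7.63 in PDLIM2 (0.57, SE 0.21). The groups did not overlap in any of the 3, and the limma adjusted p was 0.9998 for each of the 10. With 1 array left out at a time, the difference ran from 0.31 to 0.93 for SNORD35A, from 0.35 to 0.80 for SNORD97 and from 0.50 to 1.08 for SNORD38A. For SNORD83B, SNORD74, SNORD12, SNORD92 and SNORD110 it stayed at 0.55 or above. The 10 were picked for high differences on these same arrays, so such ranges are no independent check.

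**Figure D2:**
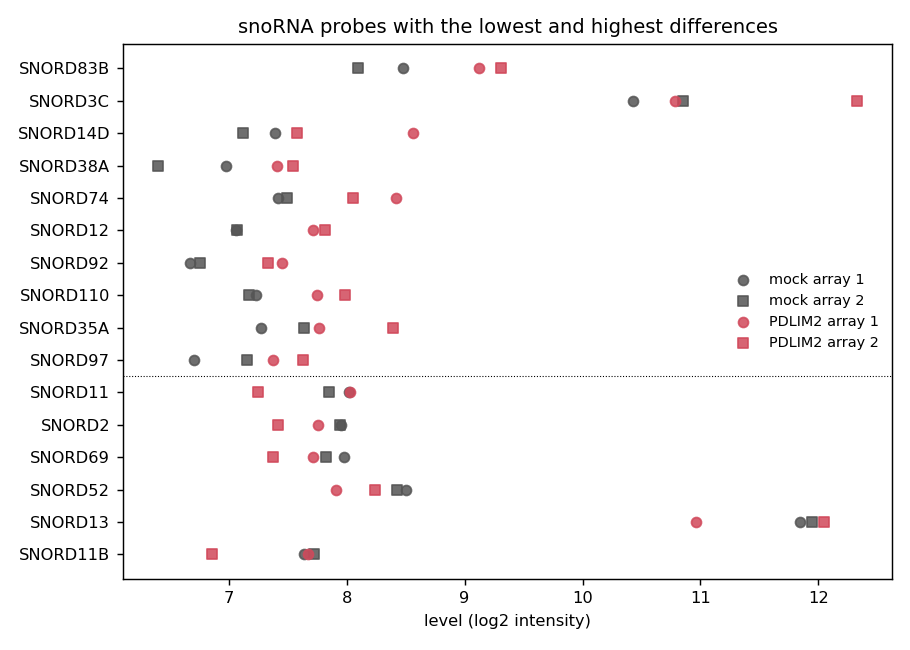
Log2 value on each of the 4 arrays for the named SNORD probes, with mock and PDLIM2 arrays in different colours and arrays 1 and 2 in different markers. For SNORD83B the PDLIM2 arrays (9.12 and 9.31) lie above the mock arrays (8.48 and 8.10), and for SNORD3C 1 PDLIM2 array stands apart at 12.33.

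At the other end, the 6 lowest differences were smaller in size. SNORD11B, from NOP58, read 7.64 and 7.72 in mock and 7.67 and 6.86 in PDLIM2 (−0.42, SE 0.27), and SNORD11, a small-subunit guide from the same gene, read 8.02 and 7.85 in mock and 8.03 and 7.24 in PDLIM2 (−0.30, SE 0.27). In both, only PDLIM2 array 2 was low. Without that array the differences were −0.01 for SNORD11B and 0.09 for SNORD11. SNORD13 had −0.39 (SE 0.33), which was 0.16 without PDLIM2 array 1.

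The other 3 had groups that did not overlap. SNORD52, a large-subunit guide from SNHG32, read 8.50 and 8.42 in mock and 7.91 and 8.24 in PDLIM2 (−0.38, SE 0.19). SNORD69, from GNL3, read 7.98 and 7.83 in mock and 7.71 and 7.38 in PDLIM2 (−0.36, SE 0.19). SNORD2, from EIF4A2, read 7.95 and 7.94 in mock and 7.76 and 7.42 in PDLIM2 (−0.36, SE 0.19). With 1 array left out at a time, the difference ran from −0.55 to −0.22 for SNORD52. It ran from −0.53 to −0.19 for SNORD69 and for SNORD2 alike. These were also picked by their difference on the same arrays. The limma adjusted p was 0.9998 for each of the 6 lowest.

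The 9 probes counted as processing snoRNAs (SNORD3, SNORD13, SNORD14 and SNORD22) had a median difference of 0.23, with 7 higher and 2 lower. SNORD13, described above as an acetylation guide, was placed in this group by its symbol and was among the 2 lower. The U14 copies, which act in small-subunit processing, differed among themselves. SNORD14D, from the chaperone gene HSPA8, read 7.39 and 7.12 in mock and 8.56 and 7.57 in PDLIM2 (0.81, SE 0.32). SNORD14C, from the same gene, read 9.13 and 8.85 in mock and 9.67 and 8.70 in PDLIM2 (0.20). PDLIM2 array 1 was the highest in both, and without it SNORD14C stood at −0.29 and SNORD14D at 0.32. SNORD14A, from RPS13, read 7.75 and 7.77 in mock and 8.07 and 7.91 in PDLIM2 (0.23), and SNORD14B, from the same gene, read 6.55 and 6.65 in mock and 6.58 and 6.60 in PDLIM2 (−0.01). SNORD22, from SNHG1, read 6.44 and 6.75 in mock and 6.60 and 7.01 in PDLIM2 (0.20).

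By kind of host, the SNORDs from ribosomal protein genes had the highest share of higher values among the 3 kinds of intronic host. Of the 29 above the filter, 25 were higher and 4 lower, with a median difference of 0.27. In 18 (62.1%) both PDLIM2 arrays lay above both mock arrays, beside 15.8% of all tested probes. In 1 (3.45%) both lay below, beside 12.8%. For other protein-coding hosts the median was 0.04, with 18 higher and 15 lower, and for noncoding hosts 0.04, with 13 higher and 7 lower. No test of the difference between these kinds was run. SNORDs of 1 host share a transcript and are not replicates. With 1 value per host the ribosomal protein median was 0.18 over 14 hosts, of which 12 were higher. The median over the 29 probes ran from 0.17 to 0.32 with each array left out, with 21 to 25 probes higher, while that of other protein-coding hosts ran from −0.05 to 0.17 and that of noncoding hosts from −0.07 to 0.20.

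**Figure D3:**
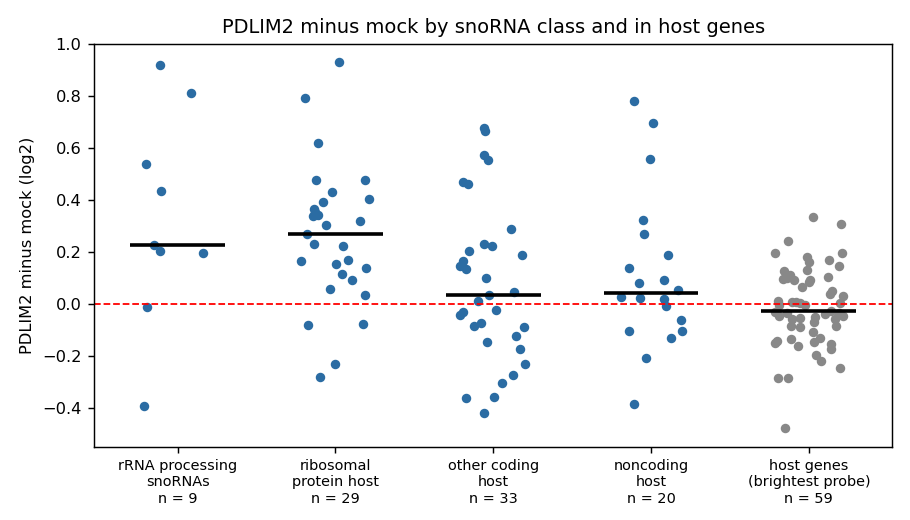
PDLIM2 minus mock in log2 units for each SNORD probe above the filter, by kind of host gene, and for host genes at their brightest probe, with each median as a bar. The ribosomal protein hosts have a median of 0.27 with 25 of 29 probes above 0, and the other 2 kinds of intronic host have medians of 0.04.

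RPL3 and RPL13A, which encode large-subunit proteins, each held 4 SNORDs above the filter, and all 8 were higher in PDLIM2. In RPL3, SNORD43, a small-subunit guide, read 9.46 and 9.70 in mock and 9.71 and 10.18 in PDLIM2 (0.37, and 0.13 to 0.60 with 1 array left out), SNORD83A differed by 0.40 and SNORD139 by 0.23, beside 0.93 for SNORD83B. In all 4 RPL3 members both PDLIM2 arrays lay above both mock arrays, beside 15.8% of all tested probes. The RPL3 host transcript itself read 14.40 and 14.36 in mock and 14.21 and 14.55 in PDLIM2 (−0.00, SE 0.19), and its 2 probes differed in sign. In RPL13A the differences were 0.17 for SNORD32A, 0.27 for SNORD33, 0.48 for SNORD34 and 0.62 for SNORD35A. The RPL13A transcript read 13.23 and 13.43 in mock and 13.26 and 13.40 in PDLIM2 (0.01).

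The other ribosomal protein hosts gave a wider picture. RPL23A held SNORD4A (0.43), SNORD4B (0.22) and SNORD42B (0.34), and RPL7A held SNORD36A (0.15) and SNORD36C (0.48), all higher. RACK1, a ribosome-bound scaffold, split its members, with SNORD95 at 0.36 and SNORD96A at −0.28, both with groups that did not overlap. Over all tested probes the groups were apart in 15.8% higher and 12.8% lower. RPL4 also split its 2 members above the filter, at 0.32 and −0.23. In RPS3A and RPL17 the only member above the filter was lower, by −0.08 in each.

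Members of 1 noncoding or nucleolar host also differed among themselves. In GAS5, SNORD74 (0.78) and SNORD76 (0.33) stood beside SNORD80, which read 9.15 and 9.08 in mock and 9.47 and 8.79 in PDLIM2 (0.02). In ZFAS1, SNORD12 (0.70) stood beside SNORD12B (−0.10) and SNORD12C (0.06). In SNHG1, SNORD31, a large-subunit guide, read 7.77 and 7.48 in mock and 8.15 and 8.21 in PDLIM2 (0.56), beside 0.19 for SNORD30 and 0.03 for SNORD25. NOP56 held SNORD110 (0.67), SNORD57 (0.55) and SNORD56 (−0.07).

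Many genes of the translation machinery start their transcripts with a run of pyrimidines, the 5′ terminal oligopyrimidine tract, and several noncoding snoRNA hosts are known to share it. The start regions of 6 hosts with at least 3 SNORDs above the filter are shown for that reason, from 10 bases before to 20 bases from the annotated start in RefSeq (GRCh38.p14), 5′ to 3′ on the gene's strand. Capitals mark the longest unbroken run of C and T touching the 11 bases centred on the first transcribed base. RPL23A also met the rule.
RPL13A, chr19:49487598-49487627, + strand: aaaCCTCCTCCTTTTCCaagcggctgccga
RPL3, chr22:39319604-39319633, - strand: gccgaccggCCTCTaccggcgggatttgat
SNHG1, chr11:62855866-62855895, - strand: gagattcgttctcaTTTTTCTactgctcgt
NOP56, chr20:2652622-2652651, + strand: cgctagCCgcattgcgagccgaacccggga
GAS5, chr1:173869026-173869055, - strand: tcatgaaTTCagatgtgtttattttggagc
ZFAS1, chr20:49278632-49278661, + strand: gccattcgTTCTTTCgcgtctgcggtgccc

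RPL13A had a run of 14 bases, SNHG1 and ZFAS1 of 7, RPL3 of 5, GAS5 of 3 and NOP56 of 2. A run of at least 8 was found at 8 of 11 ribosomal protein hosts of SNORDs (72.7%), 5 of 12 noncoding hosts (41.7%) and 7 of 32 other protein-coding hosts (21.9%), beside 11.5% of all 35116 promoters in the table. The annotated start can lie some bases from the start used in these cells, so a short run says only what these letters hold. RPL3, whose 4 SNORDs were all higher, had a short run at this start, and RPL13A, whose 4 were all higher too, had a long one.

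The differences of SNORDs and of their host transcripts were close to uncorrelated. The host was found for 167 members and measured for 134 of them, in 59 genes. The 59 hosts, each at its brightest probe, had a median difference of −0.02 log2 units, with 27 higher and 32 lower, and ran from −0.48 for SNX5 to 0.34 for NOP56. In the 71 pairs with the SNORD and the host above the filter, from 44 hosts, the median difference was 0.15 for the SNORDs and 0.00 for the hosts. The SNORD difference was above that of its host in 49 of 71. Across these pairs, which share arrays and often a host, r was 0.05 and rho 0.00.

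Single hosts of the SNORDs named above lay on either side of 0. The GAS5 transcript read 6.79 and 6.68 in mock and 6.95 and 6.85 in PDLIM2 (0.16), while ZFAS1 read 12.40 and 12.03 in mock and 12.20 and 11.84 in PDLIM2 (−0.19). NOP56, a core protein of the box C/D particle, read 12.44 and 11.97 in mock and 13.00 and 12.08 in PDLIM2 (0.34, SE 0.32), with PDLIM2 array 1 the highest. HSPA8 differed by −0.11 and EIF4G2 by −0.03, beside higher SNORD14D and SNORD97 values. TSR1, a ribosome assembly factor, was at 0.31 while its SNORD91A and SNORD91B were at −0.08 and −0.15. For ZFAS1, NOP56, EIF4G2 and SNX5 the probes of the host did not all have the same sign.

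**Figure D4:**
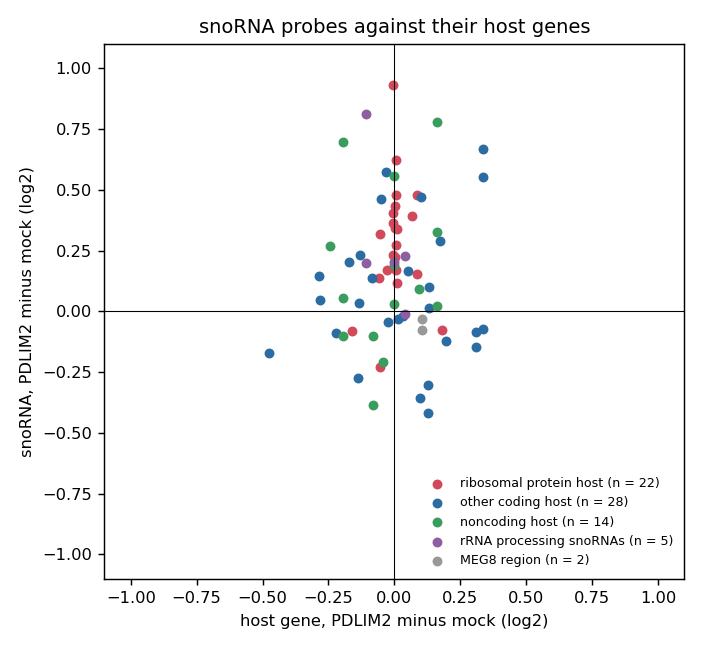
PDLIM2 minus mock of each SNORD (vertical, log2 units) against that of its host transcript (horizontal, log2 units), 71 pairs from 44 hosts, coloured by kind of host. The hosts lie between −0.48 and 0.34, the SNORDs reach 0.93, and r is 0.05.

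The proteins that build and mature box C/D particles were not called in either direction by limma, in 0 of the listed genes. Of the 4 core proteins, NOP56 (0.34) and NOP58 (0.13) were above 0 and FBL (−0.02) and SNU13 (−0.04) below. Of 9 assembly factors 4 were above 0 and 5 below, from 0.36 for NUFIP1 to −0.25 for RUVBL1, a helicase of the assembly complex. Of 14 maturation and transport factors 9 were above 0 and 5 below. XRN2, a nuclear exonuclease that trims snoRNA ends from introns, read 10.54 and 10.87 in mock and 10.16 and 10.41 in PDLIM2 (−0.42, SE 0.20), the lowest of that list. PHAX, an adaptor in U3 transport, stood at 0.27. Of the 7 processome proteins above the filter 5 were above 0, among them IMP3 (0.30) and UTP15 (0.28), which work with U3. Of 9 measured noncoding hosts 2 were above 0 and 7 below, with SNHG12 at −0.24.

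Arrays 1 and 2 also differed over the SNORDs. In mock, array 2 was above array 1 for 33 of 94 SNORDs and below for 61, with a median difference of −0.10, beside 48.4% of all tested probes above. In PDLIM2, 36 were above and 58 below, with a median of −0.12, beside 50.9%. In 42 SNORDs array 2 was lower in both groups, beside 32.9% of all tested probes, and in 17 it was higher in both, beside 32.2%. Across the 94 SNORDs the array differences of the 2 groups correlated at r = 0.50 and rho = 0.33, and over all tested probes at r = 0.48. No label says what separates arrays 1 and 2.

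The U3 probes went the other way from most SNORDs. Array 2 exceeded array 1 by 0.42 in mock and 1.54 in PDLIM2 for SNORD3C, by 0.74 and 1.11 for SNORD3D, and by 0.82 and 1.02 for SNORD3A. SNORD13 differed by 0.10 in mock and 1.09 in PDLIM2. The U14 copies in HSPA8 were lower on array 2, by −0.27 in mock and −0.99 in PDLIM2 for SNORD14D, and by −0.28 and −0.97 for SNORD14C. For SNORD3A, SNORD3D and SNORD14C the array difference in each group was thus larger in size than the difference between PDLIM2 and mock. For SNORD3C, SNORD13 and SNORD14D this held for the array difference in PDLIM2 but not for that in mock. With the array number as a term beside the group, limma called 0 SNORDs, beside 0.165% of all tested probes higher and 0.0678% lower on array 2, and at an unadjusted p under 0.05 it had 8 SNORDs higher (10.2% of all) and 15 lower (9.03%).

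**Figure D5:**
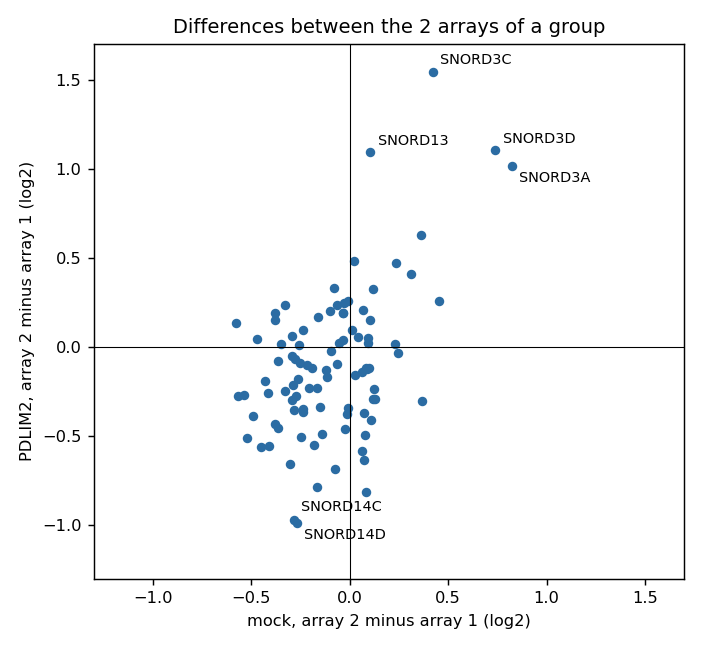
Array 2 minus array 1 in PDLIM2 (vertical, log2 units) against the same in mock (horizontal, log2 units) for the 94 SNORD probes above the filter. The U3 probes lie at the upper right, up to 1.54 in PDLIM2, and 42 probes lie below 0 in both groups.

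Other small RNAs on the same arrays are given for comparison, and no test of the difference was run. H/ACA snoRNAs (SNORA symbols), which guide pseudouridine formation, had a median PDLIM2 minus mock of −0.01 over 86 probes above the filter, with 40 higher and 46 lower. Cajal body RNAs (SCARNA symbols) had 0.19 over 21 probes, with 18 higher and 3 lower, and spliceosomal RNU symbols had 0.71 over 12, all 12 higher. Both PDLIM2 arrays lay above both mock arrays in 20.9% of SNORA, 38.1% of SCARNA and 83.3% of RNU probes. The share was 38.3% for SNORDs and 15.8% for all tested probes. Ribosomal protein genes, at 121 probes, had a median of 0.00, with 64 higher and 57 lower.

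The 84 dim SNORD probes had small differences between the groups, but more of them were higher than lower in PDLIM2. Their median difference was 0.04 log2 units, beside 0.0065 over all 47230 probes, dim and bright. Of the 84, 56 were higher, and the difference ran from −0.35 to 0.21. The share of higher values over all probes under the filter was not determined. Both PDLIM2 arrays lay above both mock arrays in 14 of them (16.7%), beside 14.4% of all probes under the filter, and below in 4 (4.76%), beside 13.8%.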

How the data were processed

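Each array's deposited values were log2 intensities, 1 for each probe. How the authors scanned, background-corrected and normalized them is not given in the sources used here. Titles gave each sample's group and array number. The quartiles of the 4 arrays agreed within 0.05 log2 units, so the deposited log2 values were used as they stood. Of 47231 probes 47230 were complete, and the 23615 with a mean above the median were tested.

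PDLIM2 minus mock was fitted over all tested probes with lmFit and eBayes (limma 3.58.1, R 4.3.3), group only, with two-sided p-values and Benjamini-Hochberg adjustment at 0.05. Residual degrees of freedom were 2, with a prior worth 5.10. The script was tested on simulated arrays.

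A host came from a hand-written list, borne out by RefSeq gene spans (116 members), or from the spans alone (51). Strand could not be checked. In 6 members several spans applied and in 5 none. RACK1 was counted with the ribosomal protein hosts, and SNORD14A, SNORD14B and SNORD22 with the processing snoRNAs.

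Named were the 10 highest and 6 lowest differences, the 6 brightest probes, the 6 largest array differences, the processing snoRNAs, their hosts and up to 4 members of each protein list. Other members of a named host were given after their values were seen. Hosts outside these rules were likewise picked after their values were seen, such as RPL23A, RPL7A, RACK1, RPL4, RPS3A, RPL17 and TSR1. The members and lists were chosen with earlier results of these data known. Alternatives covered the filter, scaling, offset, prior, replicate block and each array left out.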

Additional observations from a re-analysis of the deposited data

How the results depend on the processing

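For the 24 named SNORD probes, all 72 values under quantile normalization, median centring and an offset kept their sign. The arrays already shared nearly the same distribution, and many of these probes were picked for large differences. Few signs could therefore have changed, and this is no independent check. Other filters, priors and the array number leave a difference unchanged by construction and bear only on its p, and 0 of all 184 values were called. The count of SNORDs 1.5-fold higher at an unadjusted p under 0.05 (8) was 4 with a filter at the 75th percentile, where 35 SNORDs were tested, and 2 with an offset of 50 on the intensity. Same-numbered arrays deviated together (r = 0.476 across probes), but with 2 pairs and no label on what a number means, what they share is not known. With the replicate block limma called 0 SNORDs, and 1 probe lower over all probes, which was no SNORD. The lowest adjusted p among the 24 named was then 0.3173, for SNORD83B, beside 0.9998 in the limma fit by group only. Median SNORD differences were 0.059 without a filter, 0.139 without the 3 U3 probes and 0.079 with 1 value per host over 54 hosts. After the data were seen, 1 value per host was also tried for ribosomal protein hosts, giving 0.175 in place of 0.271. Leaving out each array in turn leaves 1 array alone in its group, assumed to vary like the others. The count of SNORDs called then ran from 0 to 6 higher and 0 to 1 lower, that of all probes from 0 to 163 higher and 0 to 647 lower, and that of SNORDs past 1.5-fold from 7 to 14 higher and 0 to 2 lower. The most calls in each case came without PDLIM2 array 1. The median ran from 0.058 to 0.224 over all SNORDs, from 0.169 to 0.317 for ribosomal protein hosts, from −0.048 to 0.173 for other protein-coding hosts, from −0.065 to 0.199 for noncoding hosts, and from −0.051 to −0.011 for the host genes. Of 96 such values for named SNORDs 8 changed sign, with ranges of −0.12 to 0.0042 for SNORD104, −0.69 to 0.091 for SNORD11, −0.94 to 0.16 for SNORD13, −0.057 to 0.036 for SNORD14B, −0.29 to 0.68 for SNORD14C, −0.0018 to 0.41 for SNORD22 and −0.12 to 0.99 for SNORD3D. The cause was not tested. Signal over background is unknown, so differences of dim probes may be understated.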
